A study of Mus musculus with 6 samples.

Results

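The transcripts described here encode the MHC class II presentation pathway: the chains of the presenting molecules (H2-Aa, H2-Ab1, H2-Eb1), the peptide loading molecule H2-DM (H2-DMa, H2-DMb1, H2-DMb2), its inhibitor H2-O (H2-Oa, H2-Ob), the invariant chain Cd74 and the transactivator Ciita. These 10 genes were chosen by name, as members of the pathway, from 28773 gene IDs listed in each file, and all 10 were above 0 in every sample. RNA was sequenced from splenic CD8+ T cells of mice on day 35, with 3 samples labelled MWA+PBS and 3 labelled MWA+2DG. Every animal had received microwave ablation (MWA) of its tumor. MWA+PBS animals then received the PBS vehicle, and MWA+2DG animals received 2-deoxy-D-glucose (2DG), a glucose analogue that blocks glycolysis, until some days before the spleens were taken. Neither untreated mice nor mice given 2DG without ablation were among the samples analysed here. The main tumor model of the study was the 4T1 breast tumor in BALB/c mice, but the labels of these samples give no strain, age or tumor, and do not say whether a sample was 1 animal or a pool. The cells were isolated from whole spleen with a magnetic CD8+ T cell kit, so the p-values below measure only the spread between these isolates, which may be technical.

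MHC class II molecules carry peptides from endosomes to the surface of professional antigen-presenting cells, mainly B cells, dendritic cells and macrophages, where CD4+ T cells read them. An alpha and a beta chain assemble on the invariant chain, which is cut down in the endosome by cathepsins to a short peptide that H2-DM exchanges for antigen, while H2-O holds H2-DM in check, mainly in B cells. Ciita switches the whole group on by joining RFX, CREB and NF-Y proteins that sit on the X and Y boxes of the promoters. Mouse T cells, unlike activated human T cells, are known for making little or no class II of their own.

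Promoter sequences are shown first because the X and Y boxes are the known elements of class II promoters. RefSeq promoters (GRCm38.p6) matched 7 of the 10 genes, and H2-Ab1, Cd74 and Ciita had no entry. The 150 bases before the start are given for the 6 of these 7 that held the longer form of the Y box, 5′ to 3′ on the strand of the gene. Capitals mark 4 motifs, searched on both strands. The X box core is GCAAC. For the X2 box, known to lie next to it, only the letters TGATGC were searched. Other forms of the X2 box were not searched, so a promoter without this match, such as that of H2-Aa, is not shown to lack the box. In H2-Eb1 the TGATGC that directly precedes the longer Y box is also in capitals, although it does not lie next to the X box core. For the Y box both the short form CCAAT and a longer one were searched. That longer form is CCAATCA, and it reads TGATTGG on the strand printed here. The short form is contained in the longer one.
H2-Aa (chr17:34287824-34287973, minus strand): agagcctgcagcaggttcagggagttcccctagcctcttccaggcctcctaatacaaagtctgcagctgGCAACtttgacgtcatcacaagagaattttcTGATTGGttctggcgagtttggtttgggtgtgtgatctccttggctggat
H2-Eb1 (chr17:34305717-34305866, plus strand): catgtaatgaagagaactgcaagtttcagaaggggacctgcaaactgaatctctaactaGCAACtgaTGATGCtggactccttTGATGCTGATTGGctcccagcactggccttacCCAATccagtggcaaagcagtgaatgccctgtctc
H2-Oa (chr17:34092229-34092378, plus strand): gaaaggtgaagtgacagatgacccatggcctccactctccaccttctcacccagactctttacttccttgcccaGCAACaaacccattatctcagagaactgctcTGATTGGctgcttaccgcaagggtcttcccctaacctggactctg
H2-Ob (chr17:34238755-34238904, plus strand): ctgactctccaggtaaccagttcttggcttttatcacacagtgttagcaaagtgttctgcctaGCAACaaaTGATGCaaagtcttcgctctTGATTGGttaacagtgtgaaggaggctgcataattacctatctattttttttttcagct
H2-DMb1 (chr17:34153041-34153190, plus strand): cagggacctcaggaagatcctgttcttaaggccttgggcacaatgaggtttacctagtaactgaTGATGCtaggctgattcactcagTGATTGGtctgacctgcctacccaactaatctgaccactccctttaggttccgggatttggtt
H2-DMb2 (chr17:34145099-34145248, plus strand): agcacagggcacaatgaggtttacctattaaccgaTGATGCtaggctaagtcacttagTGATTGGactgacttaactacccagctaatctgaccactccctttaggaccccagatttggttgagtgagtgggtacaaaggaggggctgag
The longer Y box was thus found for 6 of the 7 genes, all but H2-DMa, and in 5.71% of 32851 mouse promoters searched in the same way. An X box core followed 10 to 40 bases downstream by the short Y box, in the orientation printed, was found in 4 of them (H2-Aa, H2-Eb1, H2-Oa and H2-Ob), and in 0.432% of all promoters. In H2-DMb1 and H2-DMb2 the X box core was missing, as it was from 1 of the 2 promoter windows listed for H2-DMa, and neither H2-DMa window held a Y box. Taken alone, the X box core was in 19.6% of all promoters, the short Y box in 24.5% and the X2 letters TGATGC in 5.68%. The longer Y box, the X2 box and the spacing were added after the sequences had been seen, and a match of letters is a description and not a measured binding site.

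Values are FPKM, that is, fragments per transcript length and per mapped fragments of the library, which allows levels of different genes to be set side by side, and are given as mean ± SD over the 3 samples of a group. The FPKM totals of the samples lay between 291803 and 313257, and 22414 to 23340 genes were above 0. Read depth is unknown. The label of the isolate was met by its own markers, with Cd8a at 231.5 ± 6.96 FPKM in the MWA+PBS samples and 366.4 ± 9.47 in the MWA+2DG samples. Markers of cells other than T cells were present in both groups and are given with the class II genes below. No batch is named in the labels. A batch that ran with the treatment and the treatment itself cannot be told apart.

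Compared with MWA+PBS, 6 of the 10 class II genes were higher in MWA+2DG, 3 were not called and Ciita was too low to enter the test. The 6 were H2-Aa, H2-Eb1, H2-DMb1, H2-DMb2, H2-Oa and H2-Ob, of which H2-Eb1 lost its direction (-0.02) when libraries were scaled to T lineage genes, as described below. H2-Ab1, H2-DMa and Cd74 were not called, and Cd74 was by far the highest of the 10 in both groups. Genes were tested with limma on log2(FPKM + 1) where their mean FPKM was at least 1, which left 12444 genes and 9 of the members, and a gene was called at an adjusted p under 0.05. Of all tested genes, 22.3% were called higher and 17.1% lower in MWA+2DG, 39.4% in all, and the rule of the study (P under 0.05 and a log2 difference beyond 0.25) took in 38.2%. Of the members, 0 were lower with limma, and 0 were lower at an unadjusted p under 0.05, whereas with T lineage scaling 3 were called lower (H2-Ab1, H2-DMa and Cd74), against 64.6% of all tested genes. The median log2 fold change was 0.61 over the 9 tested members and 0.05 over all tested genes. In bulk RNA, more cells of a type and more RNA per cell cannot be told apart.

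**Figure D1:**
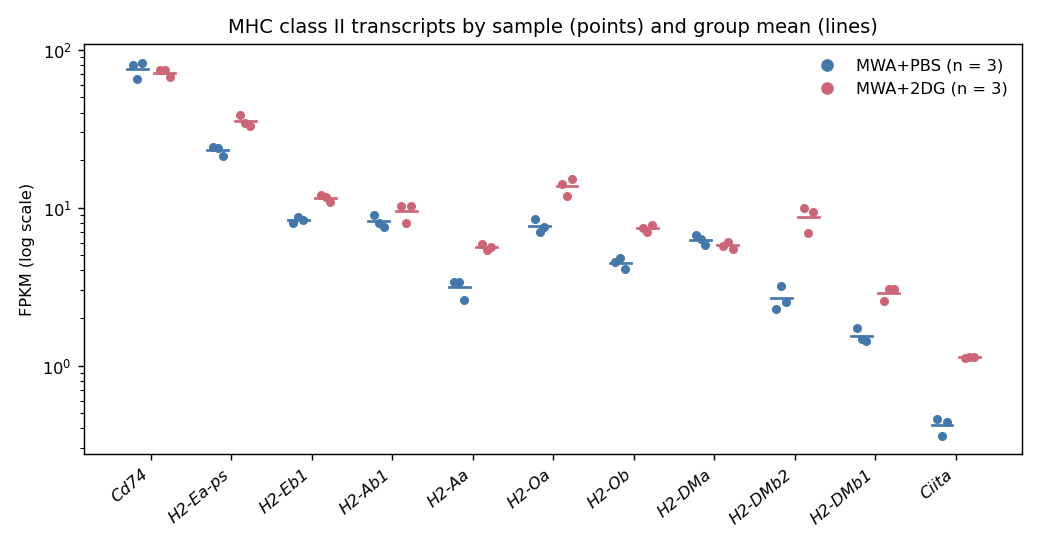
FPKM on a log axis of the 10 class II genes and H2-Ea-ps in each of the 3 MWA+PBS and 3 MWA+2DG samples (points) with group means (lines). The groups were apart for H2-DMb2 (2.66 against 8.75 FPKM) and Ciita (0.42 against 1.13), and overlapped for Cd74, H2-Ab1 and H2-DMa.

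H2-Aa and H2-Ab1 encode the alpha and beta chain of the I-A molecule. H2-Aa was 3.39, 3.39 and 2.59 FPKM in the MWA+PBS samples and 5.91, 5.37 and 5.66 in the MWA+2DG samples. All MWA+2DG values lay above all MWA+PBS values, and the difference was 0.69 ± 0.10 on the log2 scale (SE; limma adjusted p = 0.00115). The partner chain behaved differently. H2-Ab1 was 8.98, 8.03 and 7.52 FPKM in MWA+PBS and 10.25, 7.98 and 10.31 in MWA+2DG. MWA+2DG replicate 5 lay within the MWA+PBS range, and the log2 fold change of 0.19 had a 95% confidence interval from -0.06 to 0.44 (limma adjusted p = 0.195). Without that replicate it was 0.30 (limma adjusted p = 0.0366), so whether H2-Ab1 was called rested on 1 library.

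H2-Eb1 encodes the beta chain of the I-E molecule. It was 8.02, 8.75 and 8.38 FPKM in MWA+PBS and 12.05, 11.65 and 10.81 in MWA+2DG. The groups did not overlap, and MWA+2DG was higher by 0.41 ± 0.06 on the log2 scale (limma adjusted p = 0.00195). The alpha chain of I-E, H2-Ea, is named H2-Ea-ps in the gene table because the reference strain C57BL/6 carries a defective copy, whereas BALB/c expresses it. It is not one of the 10 genes, but it was the second highest class II transcript, at 24.24, 23.84 and 21.36 FPKM in MWA+PBS and 38.88, 34.60 and 32.65 in MWA+2DG. Its log2 fold change was 0.59 ± 0.08 (limma adjusted p = 0.00106), a call that was lost with T lineage scaling, as given below. The ratio of H2-Ea-ps to H2-Eb1 FPKM lay between 2.55 and 3.02 in the MWA+PBS samples and between 2.97 and 3.23 in the others, and these ranges overlapped. A further beta chain gene of the locus, H2-Eb2, stayed at or below 0.22 FPKM in every sample and was not tested.

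Cd74 is the invariant chain that fills the groove of new class II molecules and steers them to the endosome. It was 79.90, 65.42 and 82.85 FPKM in MWA+PBS and 73.91, 74.09 and 66.82 in MWA+2DG. The groups overlapped, and the log2 fold change of -0.08 had a 95% confidence interval from -0.30 to 0.14 (limma adjusted p = 0.537). Single libraries moved this value, to -0.18 (limma adjusted p = 0.0560) without MWA+PBS replicate 2, to -0.04 without replicate 1, to -0.02 without replicate 3 and to -0.03 without MWA+2DG replicate 6, none of them called. Cd74 FPKM was 19.3 to 32.0 times that of H2-Aa in the MWA+PBS samples and 11.8 to 13.8 times in the MWA+2DG samples, ranges that did not overlap.

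H2-DM is a heterodimer that exchanges the invariant chain remnant for antigen peptide, and mice have 2 genes for its beta chain. H2-DMa, the alpha chain, was 6.67, 6.33 and 5.81 FPKM in MWA+PBS and 5.74, 6.05 and 5.49 in MWA+2DG. The ranges overlapped, with a log2 fold change of -0.10 and a 95% confidence interval from -0.27 to 0.06 (limma adjusted p = 0.280). Of the beta chain genes, H2-DMb2 had the largest log2 fold change of the 9 tested members. It was 2.27, 3.19 and 2.52 FPKM in MWA+PBS and 9.90, 6.89 and 9.45 in MWA+2DG. Every MWA+2DG sample was above every MWA+PBS sample, the means differed 3.29-fold, and the log2 fold change was 1.41 ± 0.14 (limma adjusted p = 0.000268). H2-DMb1 was 1.72, 1.47 and 1.43 FPKM in MWA+PBS and 2.55, 3.05 and 3.04 in MWA+2DG, again without overlap, and was higher by 0.61 ± 0.09 on the log2 scale (limma adjusted p = 0.00192). Transcripts of the 2 beta chain genes were 95.75% identical over 1081 bases, so reads may have been split between them and the division is uncertain. Their sum, which depends on that division only through the lengths of the transcripts, was 3.99, 4.66 and 3.95 FPKM in MWA+PBS and 12.45, 9.94 and 12.49 in MWA+2DG, a 2.77-fold difference of the means.

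H2-O is the inhibitor of H2-DM, and among antigen-presenting cells it is known mainly from B cells. H2-Oa, its alpha chain, was 8.50, 6.99 and 7.57 FPKM in MWA+PBS and 14.16, 11.93 and 15.12 in MWA+2DG. The groups were apart by more than their spread, at 0.76 ± 0.10 on the log2 scale (limma adjusted p = 0.000933). H2-Ob, the beta chain, was 4.55, 4.77 and 4.10 FPKM in MWA+PBS and 7.47, 6.98 and 7.79 in MWA+2DG. It was higher in each MWA+2DG sample than in any MWA+PBS sample, by 0.62 ± 0.07 on the log2 scale (limma adjusted p = 0.000549). In FPKM the alpha chain stood at 1.47 to 1.87 times the beta chain in MWA+PBS and at 1.71 to 1.94 times in MWA+2DG, and the ranges overlapped.

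Ciita, the master switch of the class II genes, was listed at 0.46, 0.36 and 0.44 FPKM in MWA+PBS and at 1.12, 1.13 and 1.14 in MWA+2DG. The groups did not overlap and their means differed 2.69-fold. With a mean FPKM under 1 over all samples it was not tested. In a fit without the filter on low values, over 28458 genes, its log2 fold change was 0.59 (limma adjusted p = 0.00466), and the number of members called higher was then 7 of 10, against 9.03% of all genes in that fit. With FPKM as deposited, 6 of the 9 tested members, and Ciita, were higher without overlap. Of the 12444 tested genes, which do not include Ciita, 30.2% were higher in MWA+2DG without overlap and 21.9% were lower without overlap, which was so for 0 members.

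Parts of 3 of the members are shared in the annotation with a gene on the other strand, and no source used here says whether reads were assigned by strand. H2-Oa shared 321 exon bases, 22.8% of its exons, with BC051537, which was at 0.59 and 0.723 FPKM in the group means. H2-DMa shared 360 bases, 10.4%, with Brd2, a chromatin reader that fell from 52.9 to 44.6 FPKM (log2 fold change -0.24, limma adjusted p = 0.00786). Ciita shared 3.45% of its exon bases with Dexi, which was at 2.26 and 2.47 FPKM and not called.

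In both groups Cd74 was the highest member and H2-DMb1 and Ciita were the lowest, while the order between them differed. In MWA+PBS the order of mean FPKM was Cd74, H2-Eb1, H2-Ab1, H2-Oa, H2-DMa, H2-Ob, H2-Aa, H2-DMb2, H2-DMb1 and Ciita. The ranges of H2-Eb1, H2-Ab1 and H2-Oa overlapped from neighbour to neighbour, as did those of H2-Aa and H2-DMb2. In MWA+2DG the order was Cd74, H2-Oa, H2-Eb1, H2-Ab1, H2-DMb2, H2-Ob, H2-DMa, H2-Aa, H2-DMb1 and Ciita. There, overlaps between neighbours were found for H2-Oa with H2-Eb1, for H2-Ab1 with H2-DMb2, for H2-DMb2 with H2-Ob and for H2-DMa with H2-Aa. The inhibitor chain H2-Oa thus stood above H2-DMa in every sample, on average 1.23 times in the MWA+PBS samples and 2.40 times in the MWA+2DG samples. Summed over the 10 members, FPKM was 108.7 to 124.5 in the MWA+PBS samples and 135.1 to 143.1 in the MWA+2DG samples, a 1.16-fold difference of the means. Cd74 held 76.1 and 71.6 FPKM of these sums on average, and with libraries scaled to T lineage genes the direction turned, to 126.0 to 151.5 and 113.7 to 119.1.

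Ratios within a sample hardly depend on how libraries are scaled against each other, so 7 of them were compared on the log2(FPKM + 1) scale. H2-Ab1 over H2-Aa was 1.16 ± 0.11 in the MWA+PBS samples and 0.65 ± 0.14 in the MWA+2DG samples. Cd74 over the mean of H2-Aa, H2-Ab1 and H2-Eb1 was 3.44 ± 0.24 and 2.93 ± 0.13. Both were lower in every MWA+2DG sample. H2-DMa over the mean of the same 3 chains went from 0.04 ± 0.03 to -0.50 ± 0.13, and H2-Eb1 over H2-Aa from 1.19 ± 0.18 to 0.91 ± 0.08, again without overlap. H2-DMb1 over H2-DMa went from -1.52 ± 0.05 to -0.80 ± 0.12, and H2-Oa over H2-DMa from 0.25 ± 0.11 to 1.12 ± 0.22. These last 2 were higher in every MWA+2DG sample. For each of the 6 ratios a two-sided exact permutation test gave p = 0.1 (0.117 after Benjamini-Hochberg adjustment over the 7). A p of 0.1 is the smallest this permutation test allows with 3 samples against 3, so it could not pass a threshold of 0.05. H2-Ob over H2-Oa differed by -0.14 and overlapped between groups (exact permutation p = 0.3).

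**Figure D2:**
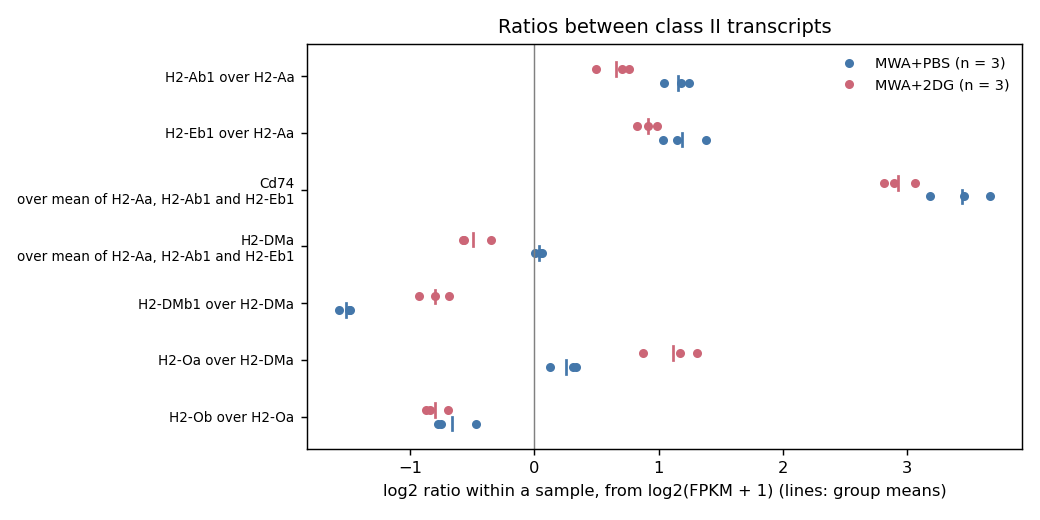
Log2 ratios between class II transcripts within each sample, from log2(FPKM + 1), for 3 MWA+PBS and 3 MWA+2DG samples (points) with group means (lines). Of the 7 ratios, 6 did not overlap between the groups, and H2-Ob over H2-Oa did.

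Of the 9 tested members, H2-Ab1 and H2-Eb1 changed direction with what the libraries were scaled to, and the other 7 did not. Transcripts of the T lineage (10 genes, among them Cd3e, Cd8a and Lck) were themselves higher in MWA+2DG, all 10 of them, with sums of 1278 to 1338 FPKM in the MWA+PBS samples and 1800 to 1925 in the others. When each library was scaled to these genes, the median log2 fold change of all tested genes moved from 0.05 to -0.36, and the share of calls that were higher in MWA+2DG from 56.5% to 6.29%. On that scale 5 members were higher (H2-Aa 0.31, H2-DMb1 0.29, H2-DMb2 1.02, H2-Oa 0.33, H2-Ob 0.22, all log2) and 3 were lower (H2-Ab1 -0.24, H2-DMa -0.51, Cd74 -0.55), against 4.33% of all tested genes called higher and 64.6% called lower. H2-Eb1 was at -0.02 (limma adjusted p = 0.828) and H2-Ea-ps at 0.13 (limma adjusted p = 0.132), and neither was called. T lineage scaling divides each library by a single factor, so distances from the median of all genes were nearly fixed in advance. That they hardly changed is no sign of stability. H2-DMb2 stood 1.36 above that median with FPKM as deposited and 1.37 above it with T lineage scaling, H2-Eb1 0.37 and 0.34, and Cd74 -0.13 and -0.19.

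**Figure D3:**
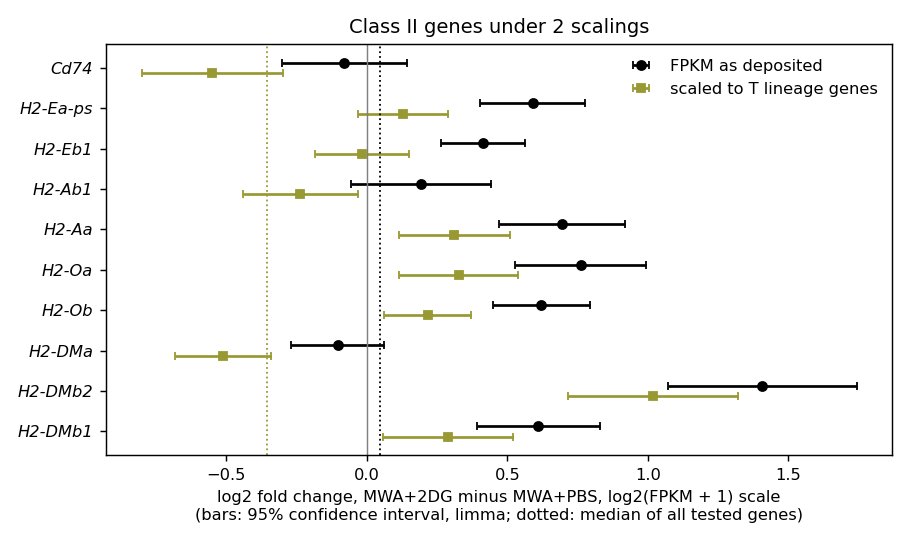
Log2 fold change, MWA+2DG minus MWA+PBS, of the 9 tested class II genes and H2-Ea-ps with 95% confidence intervals, for FPKM as deposited and for libraries scaled to T lineage genes; dotted lines are the medians of all tested genes (0.05 and -0.36). H2-DMb2 was above 0 under both scalings (1.41 and 1.02), whereas H2-Eb1 moved from 0.41 to -0.02 and H2-Ab1 from 0.19 to -0.24.

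The cell types that normally carry class II did not move together. Of 13 B cell markers, 11 were tested, 10 were higher in MWA+2DG and 1 was lower (Bank1, a B cell scaffold protein). The 13 summed to between 16.2 and 17.8 FPKM in the MWA+PBS samples and between 62.8 and 67.7 in the MWA+2DG samples, 3.86-fold higher. Cd79a, a signalling chain of the B cell receptor, was 1.22 ± 0.261 FPKM in the first group and 12.5 ± 1.48 in the second, and Fcer2a and Vpreb3 were at 0 in MWA+PBS replicate 3. Red pulp macrophage markers went the other way. All 12, among them C1qa and Adgre1, were lower, and their sum of 872 to 940 FPKM in MWA+PBS was 6.87 times that of 126 to 135 in MWA+2DG. Of 10 conventional dendritic cell markers the 3 tested (Flt3, Itgax and Wdfy4) were lower, with sums over the 10 of 18.0 to 18.4 FPKM and 6.62 to 7.54, and the lineage factor Zbtb46 was at 0.23 and 0.177 FPKM in the group means. Clec4a4 and Batf3 were at 0 in some samples.

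Of 8 plasmacytoid dendritic cell markers 6 were tested, 1 was higher and 2 were lower, and their sums overlapped (39.4 to 50.2 FPKM and 44.4 to 48.3). With T lineage scaling 3 were lower and the sums no longer overlapped (48.4 to 57.8 and 39.1 to 40.2). With FPKM as deposited, Pacsin1 was higher, and Ccr9 and Cox6a2 (4.34 and 0.58 FPKM in the group means) were lower. Bst2, the largest part of the sums (20.9 and 24.9 FPKM), was not called, nor were Ly6d and Klk1. Siglech (0.88 and 0.523 FPKM) and Tcf4 (0.897 and 0.37) were too low to be tested, and both were lower without overlap. Of 8 monocyte markers 3 were higher and 4 were lower, with sums of 314 to 340 and 347 to 390 FPKM. All 8 neutrophil markers were higher, with sums of 55.2 to 80.4 and 1507 to 1680 FPKM, 23.9-fold apart. None of the listed markers was at 0 in all samples. With T lineage scaling, too, 10 B cell markers were higher and all 12 macrophage markers were lower, while 1 monocyte marker was higher and 5 were lower and the monocyte sum was 1.22-fold lower. On that scale 4.33% of all tested genes were called higher and 64.6% lower. B cell markers moved in the direction of the class II genes called with FPKM as deposited, and macrophage and conventional dendritic cell markers in the opposite one, and their part in the class II values was not tested.

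**Figure D4:**
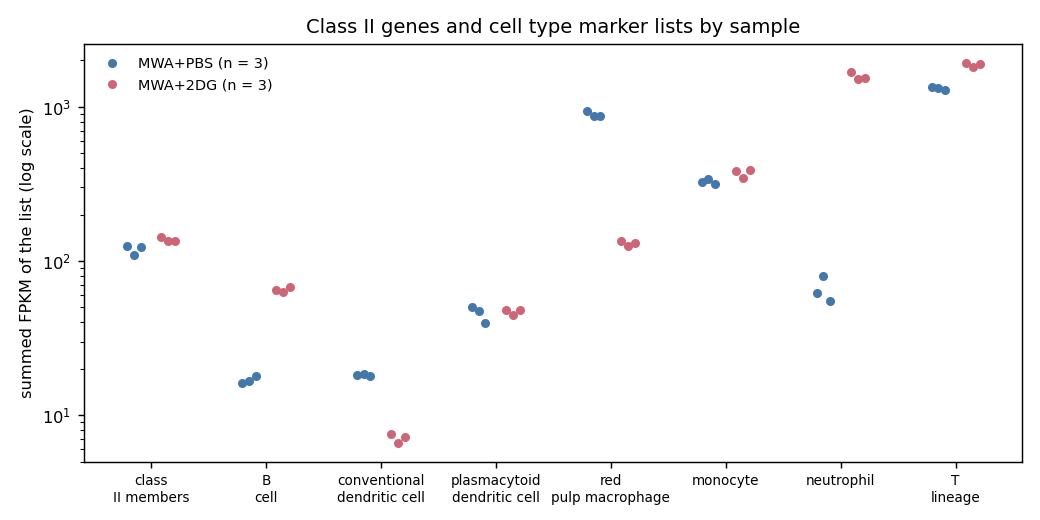
Summed FPKM on a log axis of the 10 class II genes and of 7 cell type marker lists in each sample. Class II sums were 1.16-fold higher in MWA+2DG as deposited and 1.20-fold lower with libraries scaled to T lineage genes, whereas B cell sums were higher (3.86-fold and 2.77-fold) and red pulp macrophage sums lower (6.87-fold and 9.56-fold) on both scales.

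Transcription factors linked to the class II genes were called in both directions. Among the RFX, CREB and NF-Y proteins of the X and Y boxes, only Rfx5 was called higher and only Nfya lower. Of 11 transcription factors all were tested, 3 were higher, 3 were lower and 5 were not called, with a median log2 fold change of 0.02. These counts stand against 22.3% of all tested genes called higher and 17.1% called lower. Under T lineage scaling 2 of the 11 were higher and 8 were lower, against 4.33% and 64.6% of all tested genes. Rfx5, the DNA-binding part of the RFX complex on the X box, was 5.70, 5.30 and 5.05 FPKM in MWA+PBS and 10.37, 10.04 and 10.72 in MWA+2DG, and rose by 0.84 on the log2 scale (limma adjusted p = 6.28e-05). Its partners did not follow, with Rfxank at 0.02 and Rfxap at -0.18, neither of them called, and both called lower under T lineage scaling (-0.39 and -0.55). Pou2af1, an octamer coactivator of B cells, was higher by 0.78 (limma adjusted p = 9.99e-05) and Irf4, a factor of activated lymphocytes, by 0.40, a call that Irf4 lost under T lineage scaling. Spi1, the PU.1 factor of myeloid and B cells, was 10.87, 10.13 and 10.10 FPKM in MWA+PBS and 5.24, 4.87 and 4.50 in MWA+2DG, and was lower (log2 fold change -0.95, limma adjusted p = 5.15e-05). Irf8, a factor of several types of antigen-presenting cell, was lower with a log2 fold change of -1.10. Of the NF-Y proteins that hold the Y box, Nfya was lower at -0.39, while Nfyb at 0.07 and Nfyc at -0.01 were not called, except as lower under T lineage scaling (-0.34 and -0.46). Creb1, which joins them on the X2 box, was at 0.15 and not called. It was called higher without MWA+PBS replicate 2 (0.22, limma adjusted p = 0.0309) and lower under T lineage scaling (-0.29, limma adjusted p = 0.0119).

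Interferon gamma induces Ciita through its receptor, the JAK kinases and Irf1. Of 7 genes of this input all were tested, 3 were higher, 2 were lower and 2 were not called, with a median log2 fold change of 0.12. Of all tested genes, 22.3% were called higher and 17.1% lower. Under T lineage scaling 6 of the genes of this input were lower and Socs1 was not called, against 64.6% of all tested genes called lower. Irf1 was higher by 0.30 and the kinase Jak1 by 0.22, but at -0.17 and -0.25 under T lineage scaling. The feedback inhibitor Socs1 was higher by 0.39. These 3 calls lay close to the threshold. Jak1 was not called with quantile normalization (limma adjusted p = 0.0510), nor was Socs1 with quantile normalization, median ratio scaling, no filter or T lineage scaling (limma adjusted p-values from 0.0520 to 0.802). The call on Jak1 was lost without MWA+2DG replicate 6 (0.20, limma adjusted p = 0.0502), and that on Irf1 without MWA+PBS replicate 1 (0.28), MWA+2DG replicate 4 (0.27) or MWA+2DG replicate 6 (0.28), with limma adjusted p-values from 0.0539 to 0.0567. Socs1 lost its call without MWA+PBS replicate 3 (0.45) or any 1 of the MWA+2DG replicates 4, 5 and 6 (0.37, 0.41 and 0.41), with limma adjusted p-values from 0.0517 to 0.117. The receptor chains were lower, Ifngr2 with a log2 fold change of -0.51 and Ifngr1 with -0.21. The latter was not called without MWA+PBS replicate 1 (-0.23) or 3 (-0.22) or without MWA+2DG replicate 4 (-0.19) or 5 (-0.18), with limma adjusted p-values from 0.0504 to 0.0883. Jak2 (0.12) and Irf2 (-0.02) were not called, but were called lower under T lineage scaling (-0.34 and -0.47).

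The enzymes that cut antigen and invariant chain in the endosome were mostly lower in MWA+2DG. Of 10 genes, 9 were lower and 1 was higher, with a median log2 fold change of -0.99. The shares of all tested genes were 17.1% lower and 22.3% higher. Lgmn, the asparagine endopeptidase legumain, was 56.83, 51.87 and 51.18 FPKM in MWA+PBS and 6.90, 6.68 and 7.28 in MWA+2DG (log2 fold change -2.77, limma adjusted p = 2.08e-07). Ctsb, cathepsin B, went from 133.4 ± 5.56 to 32.2 ± 0.663 FPKM (log2 fold change -2.02). Ctss, the cathepsin that makes the last cut of the invariant chain in B cells and dendritic cells, was 120.5, 122.4 and 117.8 FPKM in MWA+PBS and 80.17, 74.98 and 79.05 in MWA+2DG (log2 fold change -0.62, limma adjusted p = 9.10e-05). Ifi30, the lysosomal thiol reductase, had a log2 fold change of -1.25 and Cst3, the cystatin that inhibits cathepsins, one of -1.15. Ctsl, which takes the place of Ctss in thymic epithelium, had one of -0.55. Ctsz (-1.28), Ctsh (-0.84) and Ctsd (-0.26) were also lower, though Ctsd was not called without MWA+PBS replicate 1 (-0.22, limma adjusted p = 0.0594). Sppl2a, the protease that clears the remaining stub of the invariant chain from the membrane, was higher by 0.28, and at -0.16 and not called under T lineage scaling. The red pulp macrophage markers were lower in the same samples, as given above, and their part in these values was not tested.

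Of 10 genes of class II trafficking and turnover, 1 was higher, 5 were lower and 4 were not called, with a median log2 fold change of -0.45. Among all tested genes 22.3% were higher and 17.1% lower. Under T lineage scaling 1 of the 10 was higher and 9 were lower, against 4.33% and 64.6% of all tested genes. March1, the ubiquitin ligase that removes class II from the surface, was 3.12, 3.67 and 3.29 FPKM in MWA+PBS and 1.26, 1.40 and 1.68 in MWA+2DG (log2 fold change -0.84, limma adjusted p = 0.000494). Its relative March8 was at 1.71 and 0.46 FPKM in the group means, 3.72-fold apart, with a log2 fold change of -0.89 on the log2(FPKM + 1) scale. Cd83, which opposes March1, had a log2 fold change of -0.61. The tetraspanins, membrane organisers that gather class II molecules, were divided. Cd81 was lower with a log2 fold change of -1.85 and Cd82 with -0.40, whereas Cd37, found mainly on B cells and other mature lymphocytes, was higher by 0.63 and was called higher under T lineage scaling too. Cd9 (0.15), Cd63 (-0.49), Rab7 (-0.10) and Ap2a1 (0.01) were not called, but all 4 were called lower under T lineage scaling. Cd63 was also called lower without MWA+PBS replicate 3 (-0.73, limma adjusted p = 0.000858) and with median ratio scaling (-0.53, limma adjusted p = 0.0478), and Rab7 with median ratio scaling (-0.15, limma adjusted p = 0.0389).

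Costimulatory ligands accompany class II on antigen-presenting cells, and 3 of 6 could be tested. Cd86, the ligand of CD28 on dendritic cells, macrophages and activated B cells, was 9.87, 10.43 and 10.12 FPKM in MWA+PBS and 4.94, 4.60 and 4.41 in MWA+2DG (log2 fold change -0.98, limma adjusted p = 2.75e-05). Cd274, the inhibitory ligand PD-L1, was higher by 0.46 and Icosl, the ligand of ICOS, by 0.42. Neither of these calls held under T lineage scaling (0.01 and 0.07). Cd80, Cd40 and Pdcd1lg2 were below the filter. Cd80, the other ligand of CD28, was 1.05 ± 0.127 FPKM in the MWA+PBS samples and 0.727 ± 0.275 in the MWA+2DG samples, which overlapped. Cd40, the B cell and dendritic cell receptor for T cell help, was 0.193 ± 0.0289 and 0.47 ± 0.0872 FPKM in the same order, and Pdcd1lg2, the inhibitory ligand PD-L2, was 0.337 ± 0.0907 and 0.703 ± 0.0702 FPKM, both without overlap.

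**Figure D5:**
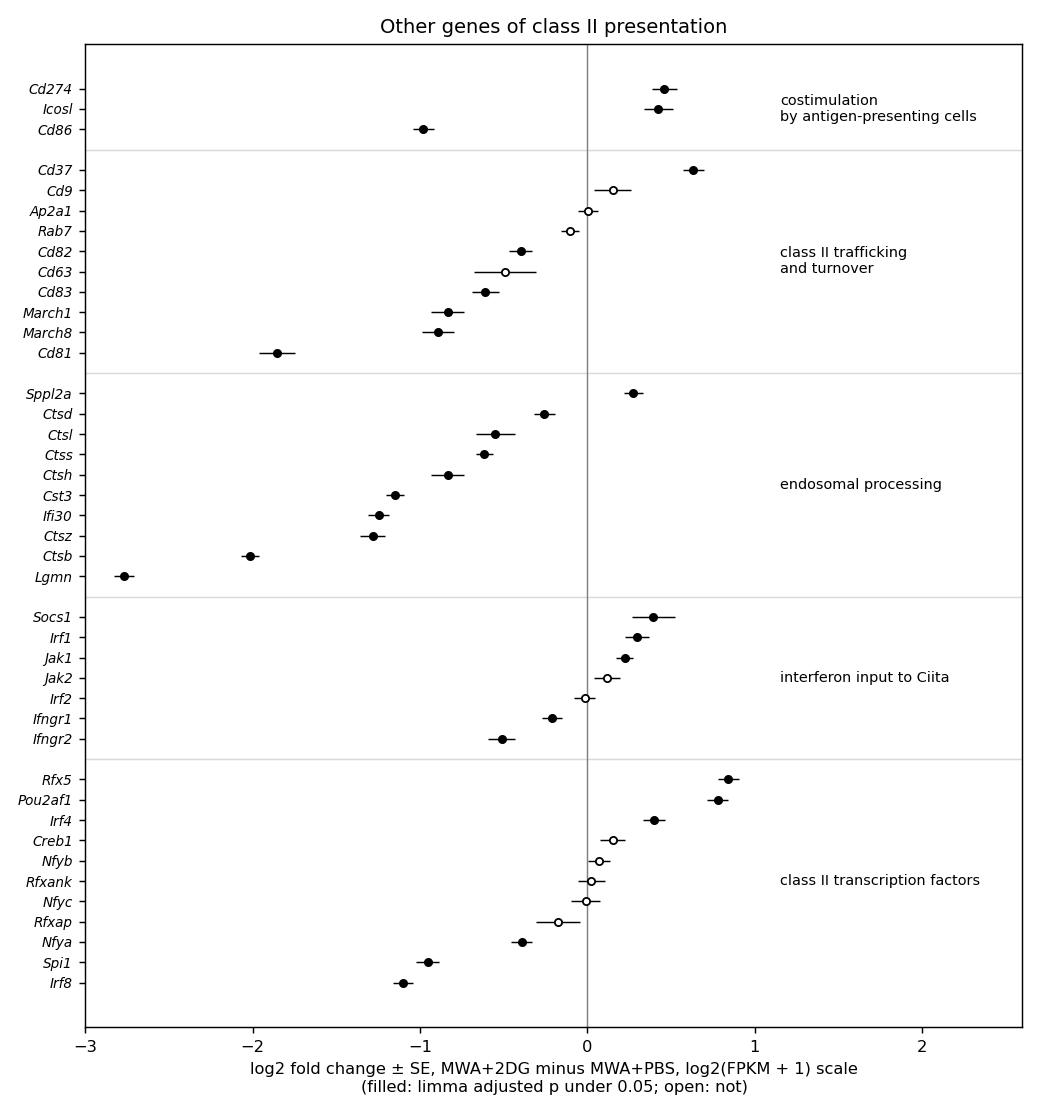
Log2 fold change ± SE, MWA+2DG minus MWA+PBS, of the tested genes of 5 lists around class II presentation, with filled points for genes called by limma. Of 10 endosomal processing genes 9 lay below 0, from Ctsd at -0.26 to Lgmn at -2.77, whereas transcription factors lay on both sides, from Irf8 at -1.10 to Rfx5 at 0.84; under T lineage scaling Sppl2a, Irf1, Jak1, Jak2, Creb1, Nfyb, Rfxank, Cd9 and Ap2a1 turned below 0.

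Among the tested genes other than the members, the genes whose course over the 6 samples was most like the mean course of H2-Aa, H2-Ab1, H2-Eb1 and Cd74 were sought, 12435 in all. Likeness was the root-mean-square difference of centred log2(FPKM + 1) values, where 0 is an identical course. The 8 nearest were Pan2 at 0.016, Cnp at 0.023, Tmem50b at 0.026, Kifc2, Lax1 and Arhgef4 at 0.027, Cd247 at 0.028 and Rgs19 at 0.029. Cd247, the zeta chain of the T cell receptor complex, is one of the T lineage genes above. The log2 fold changes of these 8 lay between 0.28 and 0.34, and the 4 class II genes averaged here included Cd74 and H2-Ab1, which were not called.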

How the data were processed

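RNA-seq of splenic CD8+ T cells was analysed for 3 MWA+PBS and 3 MWA+2DG samples, grouped by their titles. The deposited values are FPKM with 2 decimals, 1 file per sample. Per the labels, cutadapt 1.9, HISAT2 2.0.4, UMI-tools and StringTie 1.3.4d and build mm9 are named, and the authors' methods name fastp, HISAT2, StringTie and ballgown. No source used here names the annotation, or says whether strand or UMIs were used. If these mice were BALB/c, reads of their class II alleles may map to the reference with different success from gene to gene. This would be alike in both groups and was not tested.

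FPKM holds no counts, so depth is unknown and no counting error is given. Symbols came from GENCODE M21 (84 IDs had none). Genes with a mean FPKM of at least 1 were tested on log2(FPKM + 1), which understates changes of low genes, with limma 3.58.1 in R 4.3.3 (eBayes with trend, two-sided, Benjamini-Hochberg over 12444 genes). Ratios were compared with exact permutation tests in scipy 1.17.1, and transcripts with BLAST 2.17.0. Any 2 samples had identical values in at most 0.844% of tested genes, so none was a copy of another. The fit was tested on simulated data. Members, gene lists, markers, tests and alternatives were chosen with earlier results of these data known. All genes of these lists and the 8 nearest profiles were to be named, and some further genes of the lists are not reported here. No gene coordinates are given because the files' build differs from that of the annotation, and promoter coordinates are those of GRCm38.p6.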

Additional observations from a re-analysis of the deposited data

How the results depend on the processing

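Alternatives to the fit were T lineage scaling, median ratio scaling, quantile normalization, a pseudocount of 0.1, a minimum mean FPKM of 5 or none, eBayes without its trend and each sample left out. The number of members called higher was 6 with the pseudocount, quantile, median ratio and trend alternatives, 7 of 10 without the filter, 4 of 7 with the minimum of 5 (H2-Aa, H2-DMb1 and Ciita then being left out), 5 with T lineage scaling and 6 to 7 when samples were left out. Members called lower numbered 0 in these, apart from 3 with T lineage scaling. The genes past an adjusted p of 0.05 numbered 4907, then 2951 with the minimum of 5 (7313 genes tested), 8572 with T lineage scaling and 3706 to 5195 with samples left out. By the study's rule they numbered 4752, then 2562, 8157 and 4544 to 5069. With T lineage scaling, values turned negative for H2-Ab1 (-0.24), H2-Eb1 (-0.019), Rfxank (-0.39), Nfyb (-0.34), Creb1 (-0.29), Jak1 (-0.25), Jak2 (-0.34), Irf1 (-0.17), Sppl2a (-0.16), Cd9 (-0.30) and Ap2a1 (-0.44). Rfxank and Ap2a1 also did so with quantile normalization (-0.016 and -0.0052) and median ratio scaling (-0.021 and -0.042). With samples left out, Rfxank ranged from -0.041 to 0.085, Nfyc from -0.099 to 0.049, Irf2 from -0.058 to 0.021 and Ap2a1 from -0.045 to 0.037, none of them called. Leaving out a sample moved the median of all genes by at most 0.012. The sums of the lists under T lineage scaling were added after the data had been seen. The 7 ratios kept their direction in every alternative run on them. The cause of these changes was not tested, apart from the genes lost with the higher filter, which were no longer tested. No paired analysis was possible because MWA+PBS (1 to 3) and MWA+2DG (4 to 6) share no replicate number. With 3 samples a group, unknown depth and Ciita near 1 FPKM or below, small differences could not be resolved.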
